A study of Mus musculus with 10 samples.

Results

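The data cover 10 genes of the p53 pathway and of the brake on the G1 phase of the cell cycle, followed over 5 days of reprogramming of mouse embryonic fibroblasts. The genes were taken by symbol, with gene identifiers named through GENCODE release M21: the p53 gene Trp53, its regulator Mdm2 and its target Ccng1, the Cip/Kip inhibitors Cdkn1a and Cdkn1b, the INK4 genes Cdkn2a, Cdkn2b and Cdkn2c, and the D-type cyclins Ccnd1 and Ccnd2. Each of the 10 symbols matched 1 of the 54752 genes in the files, and all 10 passed the filter on low counts that left 12752 genes for testing. Fibroblasts at passage 2 came from E13.5 embryos of 129S4/SvJaeJ females mated with CBA/CaJ × C57BL/6J males that carried an Oct4-GFP transgene, a reporter of the pluripotency gene Oct4. The cells of every day, D0 included, had been infected for 48 h with retroviruses for 4 transcription factors, Jdp2, Glis1, Esrrb and Sall4, so no uninfected cells enter a comparison. They were then kept in the induction medium iCD3 for 0 h (D0), 24 h (D1), 72 h (D3), 120 h (D5) or 168 h (D7) before RNA was taken. Each day had 2 libraries, replicates 1 and 2, and the series speaks of 2 independent experiments. The labels say nothing further on separate cultures, and the spread behind each p-value is that of the libraries, part of which may be technical.

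As background, p53 is a transcription factor that is kept low by the ubiquitin ligase Mdm2 and that, when stabilised, switches on Mdm2 itself, the cell cycle inhibitor Cdkn1a (p21) and Ccng1 (cyclin G1). Inhibitors of the Cip/Kip family bind cyclin and kinase complexes, whereas INK4 proteins bind Cdk4 and Cdk6 and keep them from the D-type cyclins, and both act ahead of the RB and E2F switch into S phase. The p53 pathway and the Cdkn2a locus are known as barriers to reprogramming of fibroblasts, and loss of either raises the yield of pluripotent colonies made with other factor sets.

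Estimated counts per library totalled 2176457 (D0) to 4335931 (D7) in replicate 1 and 1329377 (D5) to 1492105 (D0) in replicate 2. A level of 3 counts stood for 0.692 to 2.26 CPM (counts scaled to library size). That range used each library's total counts, whereas the other CPM values used the totals of the tested genes, scaled by TMM. All 14 fibroblast markers were detected, and their summed level was 19240 to 22260 CPM at D0, 4926 to 7397 at D1, 2700 to 4112 at D3, 2532 to 3344 at D5 and 2511 to 3610 at D7. The D0 libraries thus carried the markers of the labelled cell type, and every later library held less of them than any D0 library. The pluripotent list, which includes the delivered Esrrb and Sall4, summed to between 2591 and 6122 CPM. Its other 10 genes summed to 7.83 and 14.2 CPM at D0, 109 and 71.9 CPM at D1, 379 and 133 CPM at D3, 1583 and 976 CPM at D5, and 1665 and 1271 CPM at D7. Of the other lists, endothelial markers (8 of 8 detected) summed to 138 to 152 CPM at D7 and 21.04 to 28.4 CPM at D0, neural markers (6 of 6) to 96.6 to 115 CPM at D7 and 50.4 to 59.9 CPM at D0, and macrophage markers (10 of 10) to between 7.73 and 37.2 CPM. Skeletal muscle markers (6 of 6) summed to 20.4 to 25.0 CPM at D7 and 3.74 to 5.87 CPM at D0, and keratinocyte markers (6 of 6) to between 0.979 and 5.48 CPM. The part of these shifts in the results below was not tested, and in bulk RNA fewer cells of a type and less RNA per cell cannot be told apart.

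Promoter windows, 250 bases before to 50 bases after the start site, were found in RefSeq (GRCm38.p6) for 8 of the 10 genes, all but Ccnd1 and Ccnd2, in 11 windows. They were searched on both strands for the p53 half-site, the 10-base element to which one pair of p53 subunits binds. The 4 windows shown are those that held it, with the half-sites in capitals. These windows belong to Trp53 and its 3 targets among the genes, which did not all share a course of expression. Whether the half-sites bear on those courses was not tested. In Cdkn1a, whose window lies at the upstream of its 2 listed start sites, the capitals mark a full site, 2 half-sites with at most 13 bases between them, those bases included.
Trp53, chr11:69580109-69580408, + strand: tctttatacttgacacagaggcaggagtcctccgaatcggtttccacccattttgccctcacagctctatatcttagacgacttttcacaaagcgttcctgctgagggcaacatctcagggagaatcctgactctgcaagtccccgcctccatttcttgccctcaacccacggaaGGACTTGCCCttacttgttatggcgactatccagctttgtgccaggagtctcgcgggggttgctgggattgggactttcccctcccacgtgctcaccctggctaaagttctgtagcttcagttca
Mdm2, chr10:117710709-117711008, - strand: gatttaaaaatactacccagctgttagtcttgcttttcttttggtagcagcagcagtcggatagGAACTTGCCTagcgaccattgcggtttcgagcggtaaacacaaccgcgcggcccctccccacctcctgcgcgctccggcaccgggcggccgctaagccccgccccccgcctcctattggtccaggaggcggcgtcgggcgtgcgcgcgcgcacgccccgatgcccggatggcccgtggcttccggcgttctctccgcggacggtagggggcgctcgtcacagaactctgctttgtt
Ccng1, chr11:40755237-40755536, - strand: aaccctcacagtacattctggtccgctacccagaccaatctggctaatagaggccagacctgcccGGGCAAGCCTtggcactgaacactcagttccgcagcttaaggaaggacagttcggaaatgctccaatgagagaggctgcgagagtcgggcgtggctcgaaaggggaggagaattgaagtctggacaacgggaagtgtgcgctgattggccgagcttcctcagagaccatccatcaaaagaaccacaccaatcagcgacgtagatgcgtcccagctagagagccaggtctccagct
Cdkn1a, chr17:29090729-29091028, + strand: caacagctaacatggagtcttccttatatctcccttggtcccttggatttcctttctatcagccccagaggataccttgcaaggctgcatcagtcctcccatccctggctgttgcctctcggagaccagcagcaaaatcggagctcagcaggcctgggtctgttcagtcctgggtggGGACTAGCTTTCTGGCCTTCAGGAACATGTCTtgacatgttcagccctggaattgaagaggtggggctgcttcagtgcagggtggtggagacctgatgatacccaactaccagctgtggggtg
The half-site began 75 bases before the start site in Trp53, 186 bases before it in Mdm2 and 185 bases before it in Ccng1. In the Cdkn1a window the half-sites began 73 and 51 bases before the start site. A half-site was present in 2745 of 32851 windows of this length (8.36%) and a full site in 24 (0.0731%). A match describes the letters only, and the windows of the other genes and the second Cdkn1a window held none. Only exact matches were marked, so a half-site with a differing base, or a site outside these windows, would not be shown. The windows were also searched for E2F, GC box and TATA box elements, which are not marked here.

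Mdm2, Ccng1, Ccnd1, Ccnd2 and Cdkn2c fell over the course, and Cdkn1a was highest at D3. Trp53 had no called difference at D7 against D0. Its fall at D3 against D0, a comparison chosen after seeing the data, only just passed edgeR's test (adjusted p = 0.0484). That call was lost with several settings and without most single libraries. At D7 against D0 Mdm2, Ccng1, Ccnd1, Ccnd2 and Cdkn2c, 5 of the 10 genes, were lower and none was higher by edgeR's quasi-likelihood test with Benjamini-Hochberg adjustment over all genes, at an adjusted p under 0.05. Of all genes tested, 17.9% were called in this comparison, 8.71% lower and 9.15% higher. The median log2 change of the 10 genes was -1.63, against 0.06 over all genes tested. The 10 genes were chosen with earlier results of these data known, so this contrast describes them and is no test. With the replicate number as a block, Cdkn1a and Cdkn2b were called as well, which made 7 lower genes beside 28.5% of all genes called and 13.7% lower. The F test for a difference among the 5 days called Mdm2, Cdkn1a, Ccng1, Ccnd1 and Ccnd2, 5 of 10, where 19.1% of all genes were called, and with the block also Trp53 (adjusted p = 0.0132) and Cdkn2c (adjusted p = 0.0356), where 34.9% were. Without D7 replicate 1 that test lost Cdkn1a (adjusted p = 0.131) and Ccnd1 (adjusted p = 0.0957), without D0 replicate 1 it lost Mdm2 (adjusted p = 0.0566) and Cdkn1a (adjusted p = 0.0707), and it also lost Cdkn1a without D0 replicate 2, D1 replicate 1 or either D3 library (adjusted p = 0.0654, 0.0510, 0.0520 and 0.0969). The same test gained Cdkn2a (adjusted p = 0.0186) and Cdkn1b (0.0374) without D5 replicate 1, Cdkn2c without D5 replicate 2 (0.0458), Trp53 with DESeq2 (0.00972), and Trp53 (0.0467) and Cdkn2c (0.0478) with no filter.

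**Figure D1:**
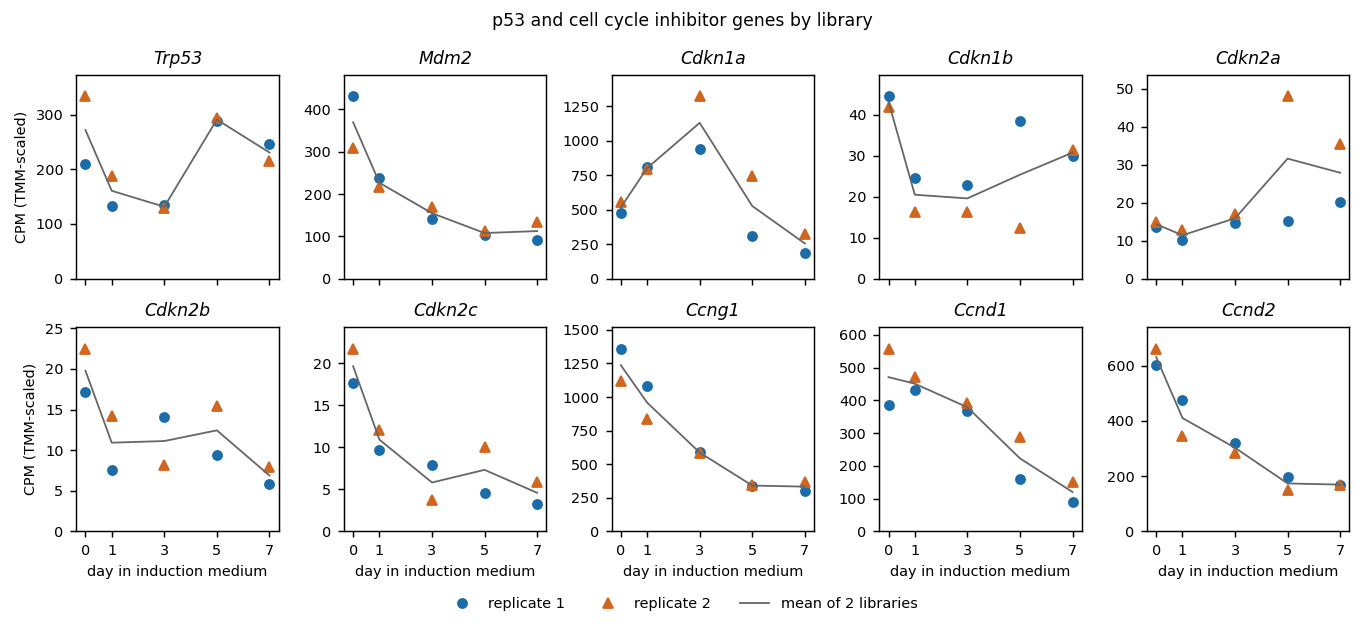
Level of each of the 10 genes in CPM after TMM scaling (vertical axis, starting at 0) by day in induction medium (horizontal axis); circles are replicate 1, triangles replicate 2, lines join the means of 2 libraries. Mdm2, Ccng1, Ccnd1 and Ccnd2 are highest at D0 or D1 and lowest at D5 or D7, Cdkn1a is highest at D3, and the replicates of Cdkn1b and Cdkn2a lie far apart at D5.

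Trp53 (chromosome 11, 69580359 to 69591873) encodes p53. Its level in replicates 1 and 2 was 210.4 and 333 CPM at D0, 133 and 189 CPM at D1, 134 and 129 CPM at D3, 288 and 293 CPM at D5, and 246 and 216 CPM at D7. The D5 and D7 libraries lay above all libraries of D1 and D3, and the D0 libraries spanned those of D5 and D7. In order of mean level D5, D0 and D7 overlapped one with the next, as did D1 and D3, and a gap without overlap lay between D7 and D1. Trp53 fell at D3 to 132 ± 3.62 CPM, against 272 ± 86.7 CPM at D0 (SD, n = 2 each), a log2 change of -1.05 (SE 0.31, adjusted p = 0.0484), in a comparison chosen after seeing the data. This call was lost without any 1 of the D0, D1, D3 and D7 libraries (adjusted p = 0.0689 to 0.4003) and kept only without a D5 library, and it was lost with RLE scaling (0.0517), upper-quartile scaling (0.0615), no filter (0.0532) and on TPM (0.0580). At D7 against D3 the log2 change was 0.81 (SE 0.30, adjusted p = 0.141), which passed with the replicate block (0.81, adjusted p = 0.0433). At D7 against D0 it was -0.23 (SE 0.30, adjusted p = 0.653), and the replicates went opposite ways. A processed pseudogene, Trp53-ps, held 1 count in D0 replicate 1 and none in the other libraries.

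Mdm2 (chromosome 10, 117688875 to 117710758) encodes the ligase that marks p53 for breakdown. It measured 431 and 308 CPM at D0, 237 and 216 CPM at D1, 141 and 168 CPM at D3, 103 and 113 CPM at D5, and 90.9 and 134 CPM at D7. Each day up to D5 lay below the one before it without overlap, while the D5 and D7 libraries overlapped. With 2 libraries per day a lack of overlap can arise by chance. The main fit called no single step for any of the 10 genes. Mdm2 averaged 112 ± 30.5 CPM at D7 and 370 ± 86.4 CPM at D0 (SD, n = 2 each), a log2 change of -1.72 (SE 0.30, adjusted p = 0.00322). Without D7 replicate 1 that change was -1.46 and was not called (adjusted p = 0.0574). At D3 against D0 the log2 change was -1.26 (SE 0.30, adjusted p = 0.0197), a call that was lost without either D0 library or either D3 library (adjusted p = 0.0539 to 0.184) and on TPM (adjusted p = 0.0686).

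Ccng1 (chromosome 11, 40748552 to 40755311) encodes cyclin G1, a p53-induced cyclin that works with a phosphatase on Mdm2. Its levels of 1357 and 1117 CPM at D0, 1081 and 836 CPM at D1, 593 and 579.7 CPM at D3, 338 and 344 CPM at D5, and 297 and 368 CPM at D7 lay lower without overlap at each step up to D5. Per length it was the most abundant of the 10 genes at D0, with 583 and 467 TPM, and it measured 135 and 158 TPM at D7. The log2 change at D7 against D0 was -1.90 (SE 0.28, adjusted p = 0.00137) and was called whichever library was left out (highest adjusted p = 0.0284). Its change at D3 against D0 was -1.08 (SE 0.28, adjusted p = 0.0273), lost without either D0 library, either D3 library, D1 replicate 2 or D7 replicate 2 (adjusted p = 0.0506 to 0.202). Its change at D7 against D3 was -0.82 (SE 0.27, adjusted p = 0.103), which passed with the replicate block (adjusted p = 0.0306) and with DESeq2 (adjusted p = 0.0412).

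Cdkn1a (chromosome 17, 29090976 to 29100727) encodes p21, the p53 target that halts cells in G1. Unlike Mdm2 and Ccng1 it was higher in the D1 and D3 libraries than in those of D0, with 478 and 557 CPM at D0, 810.1 and 795 CPM at D1, and 939 and 1323 CPM at D3. The later libraries held 309 and 746 CPM at D5 and 187 and 324 CPM at D7. D3 stood above D1 and D1 above D5 without overlap, D5 and D0 overlapped, and both D7 libraries lay below both D0 libraries. Cdkn1a fell to 255 ± 96.9 CPM at D7, against 1131 ± 272 CPM at D3 (SD, n = 2 each), a log2 change of -2.15 (SE 0.43, adjusted p = 0.0246, and 0.000869 with the replicate block). Without D3 replicate 1, D3 replicate 2, D7 replicate 1 or D7 replicate 2 the adjusted p of that change was 0.0607, 0.156, 0.204 and 0.0583. The change at D3 against D0 was 1.13 (SE 0.42, adjusted p = 0.113), which passed with the replicate block (1.10, adjusted p = 0.0171), with DESeq2 (adjusted p = 0.0400) and with no filter (adjusted p = 0.0197). At D7 against D0 it was -1.02 (SE 0.42, adjusted p = 0.124), which passed with the replicate block (-1.07, adjusted p = 0.0160) and with no filter (adjusted p = 0.0458). Leaving out either D5 library also brought both of these changes past the threshold (adjusted p = 0.0264 and 0.0331 at D3, and 0.0462 and 0.0373 at D7, without D5 replicates 1 and 2 in that order).

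Cdkn1b (chromosome 6, 134920401 to 134925513) encodes p27, the inhibitor that holds cells in quiescence. Per length it stood at 21.5 and 22.2 TPM at D0, beside 406 and 455 TPM for Cdkn1a. By library it held 44.5 and 41.9 CPM at D0, 24.65 and 16.4 CPM at D1, 22.8 and 16.4 CPM at D3, 38.4 and 12.4 CPM at D5, and 30.02 and 31.5 CPM at D7. Both D0 libraries lay above all others, and the D5 libraries lay far apart. No comparison called it: the log2 change was -1.12 at D3 against D0 (SE 0.46, adjusted p = 0.154, and 0.0442 with the replicate block) and -0.49 at D7 against D0 (SE 0.45, adjusted p = 0.507). The change at D3 was also called without either D5 library (adjusted p = 0.0462 and 0.0372).

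**Figure D2:**
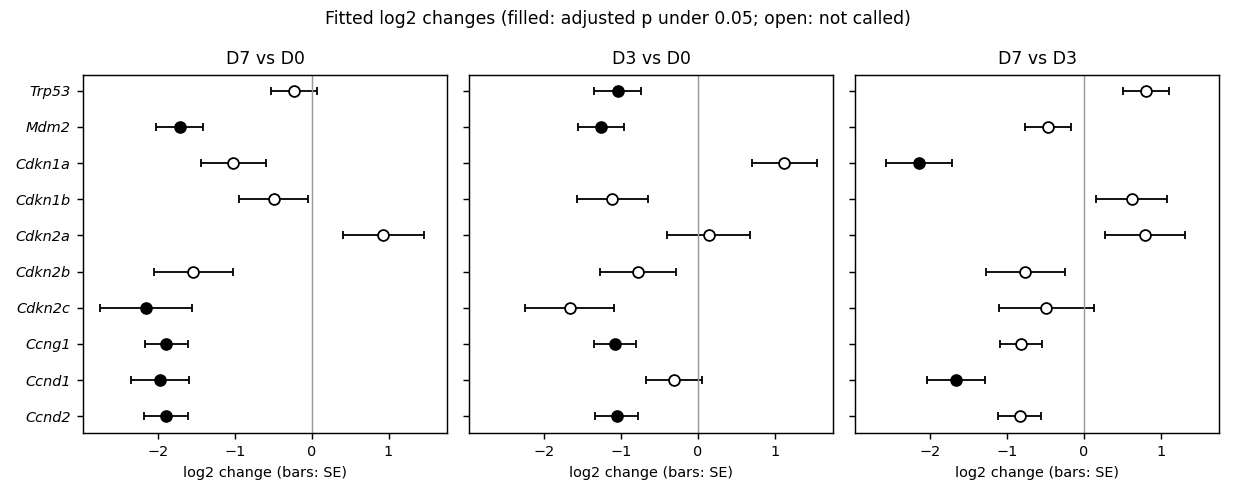
Fitted log2 changes (horizontal axis) of the 10 genes for D7 against D0, D3 against D0 and D7 against D3; bars are SE, filled circles have an adjusted p under 0.05 in edgeR and open circles do not. Mdm2, Ccng1 and Ccnd2 are called at D7 and at D3 against D0, and Cdkn1a lies at 1.13 for D3 against D0 and at -2.15 for D7 against D3.

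The INK4 genes rested on few counts, with 18 to 93 per library for Cdkn2a, 11 to 48 for Cdkn2b and 5 to 36 for Cdkn2c. Cdkn2a (chromosome 4, 89274471 to 89294653, - strand) makes 2 proteins from separate first exons, Arf, which binds Mdm2 and frees p53, and Ink4a (p16), which binds Cdk4 and Cdk6. The distal first exon (chr4:89294334-89294653, 320 bases) opens the Arf transcript and the proximal one (chr4:89281986-89282192, 207 bases) the Ink4a transcript, and both join the same 575 bases in different reading frames. The first 60 coding bases of each, from the GENCODE M21 transcripts, show that the proteins start differently, with the start codon in capitals.
Cdkn2a, Arf transcript: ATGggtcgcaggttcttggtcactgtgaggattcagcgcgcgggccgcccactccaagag
Cdkn2a, Ink4a transcript: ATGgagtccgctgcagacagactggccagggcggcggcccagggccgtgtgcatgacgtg
The files give 1 value per gene, so the 2 products cannot be read apart in the counts. The length that RSEM weighted by transcript abundance implied that the Arf transcript made up 66.3% to 91.3% of Cdkn2a transcripts, with both extremes at D7 and 70.7% and 88.2% at D0, a share that rests on those few counts.

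Cdkn2a measured 13.7 and 15.0 CPM at D0, 10.04 and 12.8 CPM at D1, 14.6 and 17.1 CPM at D3, 15.2 and 47.9 CPM at D5, and 20.2 and 35.5 CPM at D7. Both D7 libraries lay above all libraries of D0, D1 and D3, while the D5 libraries lay on both sides of the D7 libraries. It was the only one of the 10 genes with a positive log2 change at D7 against D0, 0.93 (SE 0.53), and that change was not called (adjusted p = 0.268, and 0.123 with the replicate block). Its neighbour Cdkn2b (chromosome 4, 89306299 to 89311039) encodes p15, an inhibitor induced by TGF-beta, and measured 17.1 and 22.45 CPM at D0, 7.61 and 14.2 CPM at D1, 14.05 and 8.20 CPM at D3, 9.42 and 15.5 CPM at D5, and 5.87 and 7.88 CPM at D7. All later libraries lay below both D0 libraries. Cdkn2b had a log2 change of -1.54 at D7 against D0 (SE 0.52, adjusted p = 0.0634), which passed with the replicate block (-1.53, adjusted p = 0.0259), with limma-voom (adjusted p = 0.0433) and without either D5 library (adjusted p = 0.0495 and 0.0471). The TPM ratio of Cdkn2a to Cdkn2b within a library was 5.72 and 7.87 at D7, against 1.36 and 1.15 at D0.

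Cdkn2c (chromosome 4, 109660876 to 109667189) encodes p18, an inhibitor of Cdk6 and Cdk4. It fell to 4.59 ± 1.87 CPM at D7, from 15 and 9 counts, against 19.7 ± 2.89 CPM at D0 (SD, n = 2 each). By library it measured 17.6 and 21.7 CPM at D0, 9.74 and 12.1 CPM at D1, 7.90 and 3.73 CPM at D3, 4.59 and 10.05 CPM at D5, and 3.26 and 5.91 CPM at D7. The D0 libraries lay above all others, and the later days overlapped from one to the next in order of mean level. The log2 change at D7 against D0 was -2.16 (SE 0.60, adjusted p = 0.0301). It was lost without D0 replicate 1, D0 replicate 2, D7 replicate 1 or D7 replicate 2 (adjusted p = 0.104, 0.150, 0.236 and 0.0635). For D3 against D0 it was -1.67 (SE 0.58, adjusted p = 0.0919), with an adjusted p of 0.04996 under the replicate block and 0.0432 on TPM.

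Ccnd1 (chromosome 7, 144929931 to 144939925) and Ccnd2 (chromosome 6, 127125162 to 127152193) encode the cyclins that pair with Cdk4 and Cdk6 to start G1 progression, the step that INK4 proteins block. Ccnd1 measured 386 and 557 CPM at D0, 430.3 and 472 CPM at D1, 367 and 391 CPM at D3, 159 and 287 CPM at D5, and 88.5 and 152 CPM at D7. Its D0 and D1 libraries overlapped, and from D1 on each day lay below the one before. Ccnd1 fell at D7: its log2 change was -1.98 at D7 against D0 (SE 0.38, adjusted p = 0.00509) and -1.67 at D7 against D3 (SE 0.37, adjusted p = 0.0329), beside -0.31 at D3 against D0 (SE 0.36, adjusted p = 0.668). The first of these was lost without D7 replicate 1 (-1.63, adjusted p = 0.0703), and the second without D3 replicate 1, D3 replicate 2, D7 replicate 1 or D7 replicate 2 (adjusted p = 0.0890, 0.167, 0.261 and 0.0618).

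Ccnd2 fell as well and was lower in the D1 libraries already. It measured 602 and 660.1 CPM at D0, 474 and 346 CPM at D1, 319.8 and 285 CPM at D3, 197 and 150.0 CPM at D5, and 169 and 169.5 CPM at D7. Each day up to D5 lay below the one before without overlap. The log2 change at D7 against D0 was -1.90 (SE 0.29, adjusted p = 0.00146) and was called whichever library was left out (highest adjusted p = 0.0249). Between D3 and D0 it was -1.06 (SE 0.28, adjusted p = 0.0318), a call kept only without a D5 library and lost without any 1 of the other 8 (adjusted p = 0.0559 to 0.200). On the deposited TPM the change at D3 was -0.66 (adjusted p = 0.383). The length that RSEM weighted by transcript abundance, by which TPM is divided, ran from 2631 to 5436 bases among the libraries, and its part in this was not tested. The Ccnd2 change at D7 against D3 was -0.84 (SE 0.28, adjusted p = 0.103), which passed with the replicate block (adjusted p = 0.0266).

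**Figure D3:**
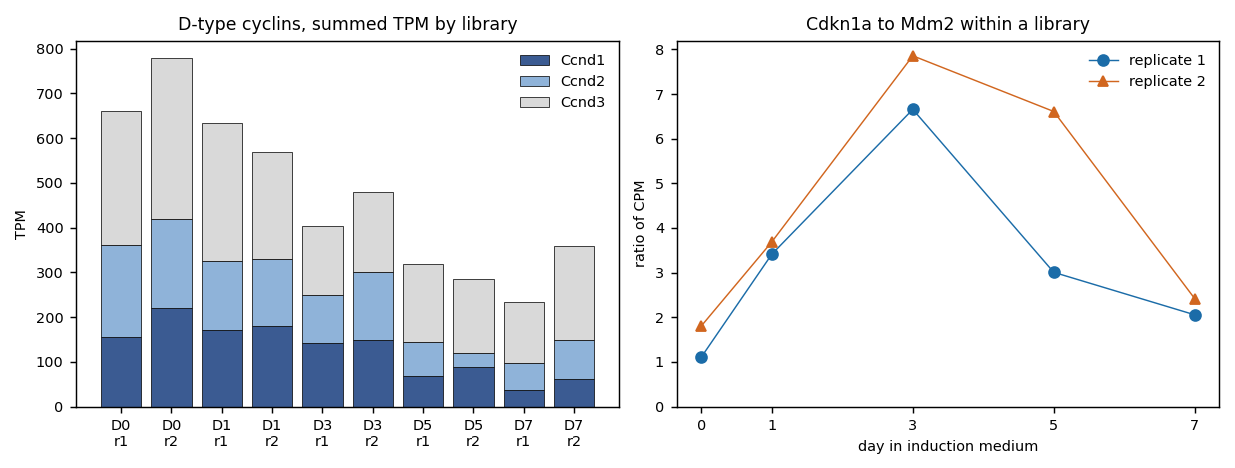
Left, TPM (vertical axis) of the D-type cyclins Ccnd1, Ccnd2 and Ccnd3 stacked for each of the 10 libraries (D0 to D7, r1 and r2 are the replicates); right, ratio of Cdkn1a to Mdm2 in CPM (vertical axis) by day in induction medium, circles and triangles for replicates 1 and 2. The stacked level is 234 and 359 TPM at D7 and 660.4 and 779 TPM at D0, and the ratio in CPM is highest at D3 in both replicates, at 6.66 and 7.86, whereas in TPM, which is not drawn, replicate 2 is highest at D5 (10.1). The TPM of Ccnd2 depends on a weighted transcript length that varied among libraries.

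Ccnd3, the remaining D-type cyclin, was measured beside these. The D-type cyclins summed to 234 and 359 TPM at D7, against 660.4 and 779 TPM at D0, and Ccnd3 made up 58.3% and 58.4% of the sum at D7, against 45.4% and 46.1% at D0. At D3 the Ccnd3 share was lower, 38.3% and 37.0%. Ccnd1 made up 23.6% and 28.2% at D0, 35.2% and 31.0% at D3, and 16.2% and 17.0% at D7. These sums and shares rest on TPM, in which Ccnd2 is divided by a weighted length that ran from 2631 to 5436 bases. The part of that length in the shares was not tested. Within libraries the ratio of Cdkn1a to Mdm2, both p53 targets, was 1.11 and 1.81 in CPM at D0, 3.41 and 3.69 at D1, 6.66 and 7.86 at D3, 3.01 and 6.61 at D5, and 2.06 and 2.42 at D7. In CPM it was highest at D3 and lowest at D0 in both replicates. In TPM it was 8.76 and 8.25 at D3 and 4.51 and 10.1 at D5, so that replicate 2 was highest at D5. Among the 5 inhibitors of the 10 genes in TPM, Cdkn1a held 83.3% and 83.1% of the sum at D0, 92.6% and 95.1% at D3, and 72.0% and 73.9% at D7. That sum leaves out Cdkn1c, a Cip/Kip gene outside the 10. At D3 Cdkn1c measured 1839 and 1872 CPM, above the 939 and 1323 CPM of Cdkn1a.

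By TPM the genes fell into a high and a low set at D0. Ccng1 (583 and 467 TPM), Cdkn1a (406 and 455), Trp53 (183 and 290), Mdm2 (264 and 182), Ccnd2 (205 and 200.4) and Ccnd1 (156 and 219) formed the high set. Cdkn2a (27.2 and 30.1), Cdkn2b (20.03 and 26.2), Cdkn1b (21.5 and 22.2) and Cdkn2c (12.5 and 14.4) formed the low one, and no library of the low set reached the high set.

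At D3 against D0, a comparison chosen after seeing the data, 4 of the 10 genes fell (Trp53, Mdm2, Ccng1 and Ccnd2) and none rose, where 12.1% of all genes were called, 5.94% lower and 6.21% higher. None of the 4 calls stood without either D0 library or either D3 library. With the replicate block 7 genes were called, 6 lower and Cdkn1a higher, beside 21.5% of all genes. At D7 against D3, 2 of the 10 fell (Cdkn1a and Ccnd1) and none rose, where 5.37% of all genes were called, 2.31% lower and 3.07% higher. With the block 5 were called, Trp53 among them as higher, beside 18.4% of all genes. These comparisons share the D0, D3 or D7 libraries with each other and with D7 against D0, so their values are given side by side only.

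The single steps of the course called none of the 10 genes by edgeR, DESeq2 or limma-voom. At D1 against D0, 4 (Trp53, Mdm2, Cdkn1b and Ccnd2) had an unadjusted p under 0.05, with log2 changes of -0.76, -0.71, -1.05 and -0.62, where 17.0% of all genes had such a p and 4.52% were called. At D3 against D1 only Ccng1 did (-0.71), where 8.49% of all genes had such a p and 0.0549% were called. At D5 against D3, 4 did (Trp53 1.14, Cdkn1a -1.10, Ccng1 -0.78 and Ccnd2 -0.80), where 11.8% of all genes had such a p and 0.0706% were called. With the replicate block that step called Trp53 (adjusted p = 0.0325) and Cdkn1a (adjusted p = 0.0484), beside 3.3% of all genes, and without the block Cdkn1a was called when D5 replicate 2 was left out (-1.88, adjusted p = 0.0459). At D7 against D5, Cdkn1a (-1.05) and Ccnd1 (-0.89) had an unadjusted p under 0.05, where 6.35% of all genes had such a p and 0% were called.

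The wider pathway was read from 8 lists with 105 genes, 103 of them tested. At D7 against D0, 9 of these rose and 9 fell, beside the 9.15% higher and 8.71% lower of all genes, and the median log2 change was 0.21 against 0.06 over all genes. With the replicate block 19 rose and 17 fell, beside 14.8% higher and 13.7% lower of all genes: 4 and 1 of the p53 regulators, 2 and 3 of the arrest and repair targets, 2 and 5 of the apoptosis targets, 1 and 2 of the RB and E2F genes, 6 and 4 of the regulators of the Cdkn2a locus, 4 and 1 of the proliferation genes, and 0 and 1 of the other G1 genes. Among 14 regulators of p53 only Nek6, a mitotic kinase, fell, to 24.8 and 35.5 CPM at D7, against 88.6 and 90.6 CPM at D0 (log2 change -1.59, adjusted p = 0.0375). Among 16 p53 targets of arrest and repair, Gadd45a (1.71) and Sesn1 (1.55) rose and Plk2 (-1.60) fell. Of 14 p53 targets of apoptosis, Pmaip1 (Noxa, 1.73) and Trp53i11 (1.61) rose, and Fas, Tnfrsf10b (-0.93) and Aen (-0.88) fell. Fas measured 1.09 and 0 CPM at D7, from 5 counts in all, against 10.3 and 8.23 CPM at D0 (log2 change -3.58, adjusted p = 0.0210). Without D7 replicate 1, which leaves a D7 library with 0 counts, the fitted Fas change was -7.36 (adjusted p = 0.0607), so its size rests on 1 library. Fas and Tnfrsf10b encode death receptors. Of these 18 calls, those of Cbx7 and Ets1 were kept whichever library was left out. The other 16 were each lost without at least 1 D0 or D7 library, with an adjusted p of up to 0.362, for Tnfrsf10b without D7 replicate 1. Tnfrsf10b and Aen were also lost with RLE scaling, upper-quartile scaling, no filter and on TPM (adjusted p = 0.0513 to 0.207), and Tnfrsf10b with the stricter filter (0.0533) and DESeq2 (0.0689). Trp53i11 was lost with limma-voom (adjusted p = 0.0543) and Sesn1 on TPM (0.0511).

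Regulators of the Cdkn2a and Cdkn2b locus moved both ways at D7 against D0, 3 of 16 higher and 3 lower. Over all genes, 9.15% were called higher and 8.71% lower, the shares to set beside this list and the later ones of this paragraph. Cbx7, a polycomb protein known to repress the locus, measured 72.7 and 48.6 CPM at D7, against 8.81 and 6.74 CPM at D0 (log2 change 2.95, SE 0.47, adjusted p = 0.00197). Kdm2b, a histone demethylase that also represses it, rose by 1.58 (adjusted p = 0.00518, and 0.0633 without D0 replicate 1). Ets1, an activator of Ink4a, measured 16.8 and 17.7 CPM at D7, against 122 and 153 CPM at D0 (-3.00, SE 0.36, adjusted p = 0.000443). Tbx2, a repressor of the locus, fell by 1.95 on the log2 scale (adjusted p = 0.0257, and 0.0513 on TPM), Bmi1 by 0.93 (adjusted p = 0.0488), and Cbx2 rose by 1.27 (adjusted p = 0.0442). Bmi1 was lost with RLE scaling, upper-quartile scaling, no filter, the stricter filter and DESeq2 (adjusted p = 0.0520 to 0.188), and Cbx2 with no filter, DESeq2 and on TPM (0.05003 to 0.102). Of 13 RB and E2F genes, E2f2 rose (2.39, adjusted p = 0.0218, but 1.30 on TPM with an adjusted p of 0.285), and of 8 other G1 cyclins and kinases Ccnd3 fell (-1.05, adjusted p = 0.0354, 0.0600 with upper-quartile scaling and 0.0517 on TPM).

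Of a list of 3 other Cdkn genes, Cdkn1c, Cdkn2d and Cdkn3, none was called at D7 against D0. Cdkn1c (p57), the third Cip/Kip member and an imprinted gene, measured 230.4 and 138 CPM at D0, 864 and 849 CPM at D1, 1839 and 1872 CPM at D3, 479 and 1208 CPM at D5, and 336 and 332 CPM at D7. Its D3 libraries lay above all others. The log2 change was 3.33 at D3 against D0 (SE 0.44, adjusted p = 0.00096, kept whichever library was left out) and -2.48 at D7 against D3 (SE 0.43, adjusted p = 0.0152, and 0.0607 to 0.134 without any 1 D3 or D7 library). At D7 against D0 it was 0.86 (SE 0.41, adjusted p = 0.185). At D5, replicate 2 exceeded replicate 1 for both Cdkn1a and Cdkn1c.

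A list of 20 proliferation genes, chosen with earlier results of these data known, was set beside the inhibitors. At D3 against D0 all 20 had a negative log2 change, with a median of -0.84 against 0.02 over all genes tested, and 5 fell (Cdk1, Aurkb, Plk1, Cdc20 and Rrm2), beside 5.94% of all genes. With the replicate block 10 fell, beside 11% of all genes. At D7 against D3 all 20 had a positive one, with a median of 0.97 against 0.02, and 4 rose (Mcm2, Mcm6, Ccnb1 and Aurkb), beside 3.07% of all genes, or 15 with the block, beside 9.5%. Aurkb, a mitotic kinase named here for its values, measured 59.7 and 80.8 CPM at D0, 24.0 and 14.9 CPM at D3, and 75.5 and 81.5 CPM at D7. At D7 against D0 only Mcm2, a replication helicase subunit, was called (1.08, adjusted p = 0.0308, and 0.0507 on TPM), beside 9.15% of all genes called higher. Other settings also ended calls: at D3 against D0 those of Plk1 with RLE scaling, upper-quartile scaling, limma-voom and on TPM (adjusted p = 0.0532 to 0.0832), of Cdk1 with upper-quartile scaling (0.0651) and of Cdc20 on TPM (0.0564), and at D7 against D3 those of Mcm2 (0.0685) and Ccnb1 (0.0589) on TPM. Each of the 9 calls against D0 at D3 or against D3 at D7 was lost without at least 1 library of the days compared, with an adjusted p of up to 0.380 for Plk1 without D0 replicate 2 and up to 0.282 for Ccnb1 without D7 replicate 1. The calls of Cdk1, Plk1 and Cdc20 at D3 against D0 were also lost without libraries of days not compared. So were those of Mcm2, Mcm6 and Ccnb1 at D7 against D3, but not those of Aurkb and Rrm2. The 2 comparisons share the D3 libraries, in which Cdkn1a and Cdkn1c were highest. Whether the inhibitors had a part in this was not tested.

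**Figure D4:**
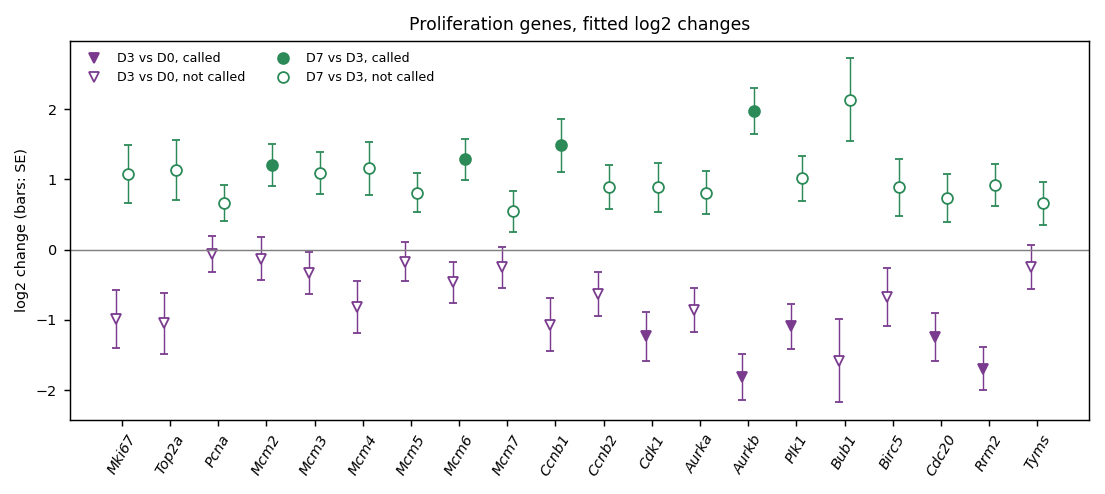
Fitted log2 changes (vertical axis, bars are SE) of 20 proliferation genes (horizontal axis) for D3 against D0 (triangles) and D7 against D3 (circles); filled symbols have an adjusted p under 0.05 in edgeR. All 20 values lie below 0 for D3 against D0 and above 0 for D7 against D3, and both comparisons use the D3 libraries.

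The genes whose pattern was most like each of the 10 were found by Pearson's r of log2 CPM over the 10 libraries, a description in which the libraries of a day share their time. For Trp53 these were Tuba1b (r = 0.946), Tars (0.924) and Psat1 (0.917), and for Mdm2 they were Htr1b (0.988), Col5a1 (0.975) and Thy1 (0.972). Cdkn1a was most like Pcsk7 (0.975), Rara (0.974) and Bahd1 (0.965), and Cdkn1b most like B3gnt5 (0.979), Lca5 (0.959) and Arl13b (0.954). Ccng1 and Ccnd2 had Nrp1 in common, with r = 0.979 and 0.978, next to Qpctl (0.985) and Angpt4 (0.982) for Ccng1 and Mbnl1 (0.981) and Mgat2 (0.978) for Ccnd2. Ccnd1 was closest to Mfn2 (0.973), Kifc3 (0.971) and Mprip (0.968). The low INK4 genes had Gm10275 (0.947), Nkiras2 (0.937) and Gm10020 (0.930) for Cdkn2a, Atf5 (0.957), Smarce1 (0.956) and Smoc2 (0.934) for Cdkn2b, and Guk1 (0.975), En1 (0.949) and Tnks1bp1 (0.948) for Cdkn2c.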

How the data were processed

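RNA-seq gene tables of 10 libraries (5 days, 2 each) were used. Per the submitters' processing notes the tools were bcl2fastq, Bowtie2 and RSEM on mm10; for versions, annotation and strand the sources used here give nothing. The deposited expected counts are RSEM's estimated counts per gene; they were rounded to whole numbers, and 29 identifiers without a name held 0.000602% to 0.00179% of them. The deposited TPM values, per the file headers RSEM's level per transcript length, served for levels between genes and for 1 alternative. The deposited FPKM values, per the file headers also from RSEM, were not used. Each sample's label lists 2 kits for libraries and 2 for sequencing, with no choice between them, and replicates 1 and 2 differed in depth and in mean fragment length (135.8 to 158.5 bases in replicate 1, 198.8 to 204.1 bases in replicate 2), which enters TPM and the weighted lengths, so the replicate number may stand for more than the experiment.

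Counts of genes passing filterByExpr (minimum count 10) were scaled by TMM and tested with edgeR 4.0.16's quasi-likelihood F test (R 4.3.3) in 1 fit of all 10 libraries, with Benjamini-Hochberg adjustment over 12752 genes and a threshold of 0.05. Each SE was derived from F, as the size of the log2 change over F's square root. The script was tested on simulated data with a smaller spread than that of the main fit and no replicate effect. That test does not show how the fit behaves on these libraries. Alternatives were RLE and upper-quartile scaling, no filter, a minimum count of 30, DESeq2 1.42.0, limma-voom and limma-trend (limma 3.58.1) on log2(TPM + 1), the replicate number as a block, and each library left out. Deviations from day means of same-numbered libraries correlated at 0.273 to 0.436 over all 10 pairs of days, above the limit of 0.1, so the numbers were taken to pair libraries. The main fit held no term for the replicate number, so its calls, and those with a library left out, ignore this pairing. Only the block fit takes it up. The common coefficient of variation between libraries was 0.308 in the main fit and 0.214 with the block. With 2 libraries against 2 the smallest two-sided exact permutation p is 0.333, so no such test was run.

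The members and lists were chosen with earlier results of these data known, and D3 against D0 was added after seeing the data. From each list at most 4 genes called at D7 against D0 were named by size of change, or the most abundant gene where none was called. Aen, Bmi1, Cbx2, Cdkn2d, Cdkn3 and the proliferation genes named at D3 were named after their values were seen. Likeness used log2 CPM with a prior count of 2. One marker list is not reported here.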

Additional observations from a re-analysis of the deposited data

How the results depend on the processing

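Values under all alternatives were tallied for the p53 and G1 genes followed here, in every comparison. Genes of the wider pathway lists, some of them not named above, were tallied only in comparisons where the main fit called them. Of 2293 values, 1922 kept their direction and side of the threshold, 306 lost their call, 33 gained one and 32 reversed, none of these called in either fit. The pathway list genes could lose a call but not gain one, so losses and gains cannot be weighed against each other. Low counts limit Cdkn1b and the INK4 genes. Unless a value shows it, the cause of a shift was not tested; leaving out a library lowers the number of samples. Upper-quartile scaling moved the median of all genes at D7 against D0 by 0.126 on the log2 scale.

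Genes called at D7 against D0 numbered 2278, and 3629 with the replicate block (839 to 2988 with 1 library left out). At D1 against D0 there were 577, with 1064 under no filter and 1350 with the block (121 to 911). At D3 against D1 there were 7, with 15 under upper-quartile scaling, 272 under no filter, 11 under the stricter filter, 206 with the block, 1 by limma-voom and 128 by DESeq2 (0 to 45). At D5 against D3 there were 9, with 452 under no filter, 421 with the block, 4 by limma-voom, 17 on TPM and 151 by DESeq2 (0 to 288). At D7 against D5 there were 0, with 176 under no filter, 20 with the block, 1 on TPM and 26 by DESeq2 (0 to 227). At D7 against D3 there were 685, with 1664 under no filter, 2351 with the block and 435 on TPM (5 to 1532). At D3 against D0 there were 1549, and 2742 with the block (589 to 2102). Among the days there were 2436, with 4139 under no filter and 4455 with the block (1235 to 3514).

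Of the 10 genes, 5 were called at D7 against D0 (2 to 7 with 1 library left out) and 5 among the days (3 to 7). At D5 against D3 there were 0, and 2 with the block (0 to 1). At D7 against D3 there were 2, and 5 with the block (0 to 2). At D3 against D0 there were 4, with 7 under the block and 2 on TPM (0 to 6).

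Uncalled log2 changes that reversed were those of Cdkn1b at D3 against D1 with upper-quartile scaling (0.0134), of Cdkn2b at D5 against D3 with the block (-0.0181) and limma-voom (-0.109), and of Cdkn2c there with limma-voom (-0.124). At D7 against D5 they were Ccng1 (0.0139) and Ccnd2 (0.0125) under no filter, Cdkn2a with limma-voom (0.114), and on TPM Cdkn2a (0.172), Ccng1 (0.160) and Ccnd2 (0.565). With 1 library left out the ranges that crossed 0 were, at D7 against D0, Trp53 -0.48 to 0.17, at D7 against D3, Cdkn2c -0.90 to 0.22, and at D1 and D3 against D0, Ccnd1 -0.29 to 0.24 and -0.50 to 0.0213. At D3 against D1 they were Cdkn1b -0.32 to 0.34, Cdkn2b -0.33 to 0.60 and Trp53 -0.47 to 0.0052. At D5 against D3 they were Cdkn1b -0.71 to 0.93, Cdkn2a -0.0513 to 1.58, Cdkn2b -0.29 to 0.55 and Cdkn2c -0.42 to 0.87. At D7 against D5 they were Ccnd2 -0.22 to 0.19, Ccng1 -0.19 to 0.11, Cdkn1b -0.33 to 1.33, Cdkn2a -0.80 to 0.83 and Mdm2 -0.24 to 0.32.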
